A study of Rattus norvegicus with 3 samples.

Results

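The matrix metalloproteinases Mmp2, Mmp9 and Mmp14, the tissue inhibitors Timp1 to Timp4 and the aggrecan-cleaving proteases Adamts1 and Adamts4 were followed in the cerebellar cortex of rats after a stroke of the forebrain. A gene was taken when an array probe's accession carried its symbol in the rat RefSeq annotation, and all 9 genes were found among the 38973 genes on the arrays, with 11 probes and 65 spots. Male Wistar rats, 9 weeks of age, underwent transient right middle cerebral artery occlusion (MCAO) or a sham operation, and tissue was taken 2 days later. The contralateral array carried RNA of the left and the ipsilateral array RNA of the right cerebellar cortex of the MCAO group, and the control array RNA of the left cerebellar cortex of the sham group, in which the carotid artery was exposed and not opened. Each pool held tissue of 4 rats, both pools of the MCAO group came from the same rats, and there was 1 array per pool on a single slide. No difference between rats could therefore be estimated, no test was made, and every difference given here is one between pools.

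MMPs are zinc proteases, secreted or anchored in the membrane as inactive precursors, that cut collagens, laminins and other proteins of the extracellular matrix. The gelatinases Mmp2 and Mmp9 digest the collagen of the vascular basement membrane and are known for their part in the opening of the blood-brain barrier after ischemia, while Mmp14 sits on the cell surface and activates the precursor of Mmp2 with Timp2 as the bridge between them. TIMPs block the active site of MMPs, Timp3 also that of several ADAMTS proteases, and Adamts1 and Adamts4 cut the lecticans, the large proteoglycans of the brain matrix and of perineuronal nets.

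Of the 9 genes, 8 were fully detected, that is, the scanner software called the spots of each of their probes well above background on the 3 arrays, and Mmp9 was not well above background on any array. Signals are given as scaled log2 signals, the log2 of the background-subtracted fluorescence intensity shifted so that the 75th percentile over all spots that are not controls is equal on the 3 arrays, and ratios as differences of these. The scanner error of a log2 ratio, propagated from the error that the software gives per spot, was 0.20 for bright spots and covers neither rats nor hybridisations. For bright spots the software's error was in nearly constant proportion to the signal, so 0.20 acts as a nearly fixed cut. It is not the spread between spots, whose median SD per array was 0.046 to 0.047. Only Mmp14 passed a log2 ratio of 1 in either direction among these 8. It was below -1 in the contralateral against the control array, where 0.856% of the 22090 fully detected genes of the arrays were below -1 and 1.41% above 1, and in the ipsilateral against the control array, where 0.801% of these genes were below -1 and 3.10% above 1. Between both sides of the MCAO group, no detected gene of the 9 was beyond 1 in either direction, against 0.217% of all such genes above 1 and 1.54% below -1 for the contralateral over the ipsilateral array.

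**Figure D1:**
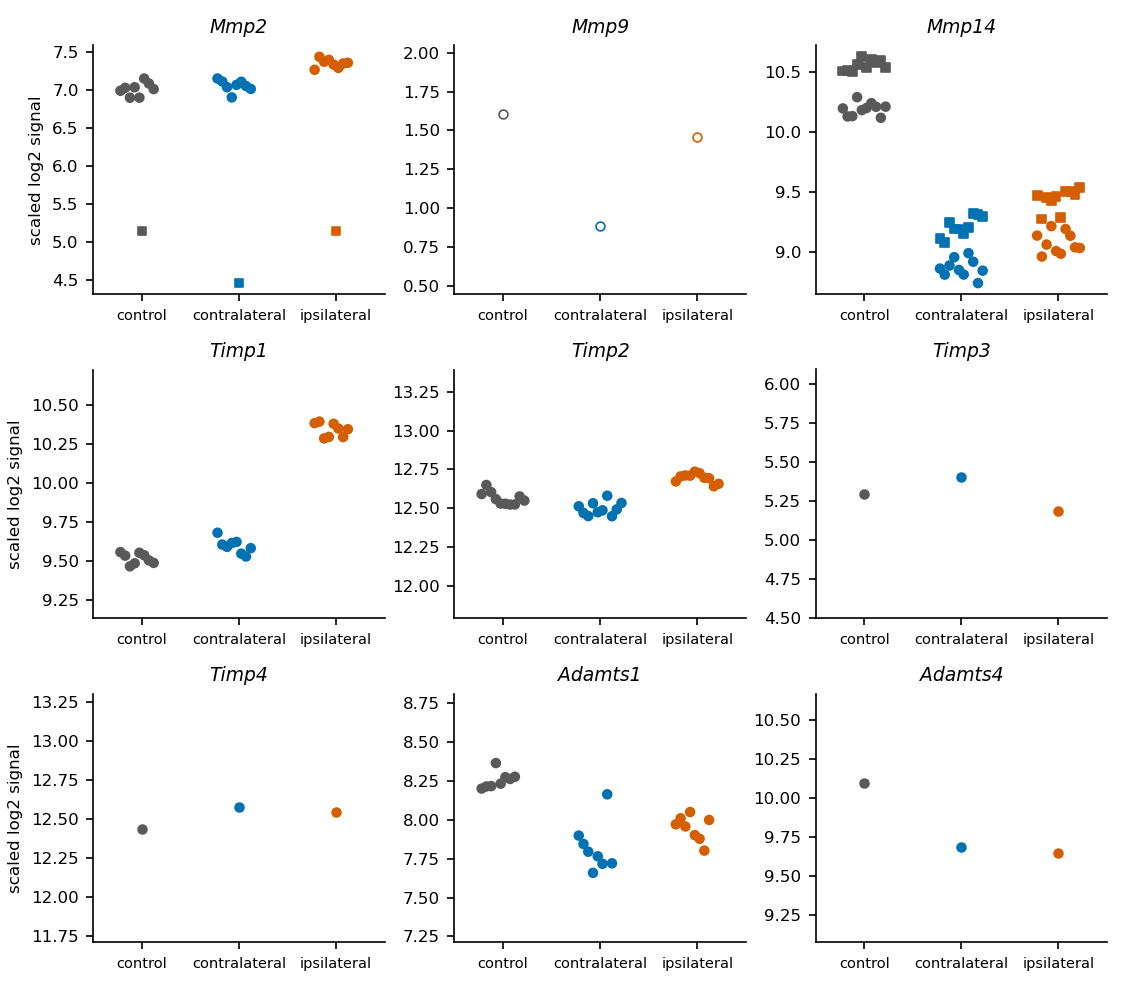
Scaled log2 signal of each spot of the 9 genes on the control, contralateral and ipsilateral arrays. Circles are spots of the first and squares of the second probe of a gene; filled symbols are well above background and open symbols are not. Spots marked as outliers are left out. Spots of 1 array share their RNA pool and are not biological replicates. The vertical scale differs between genes.

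The spots of every gene are shown by array, and the distance between arrays can be read against the scatter of the spots within an array. Mmp14 stands out for its control spots, Timp1 for its ipsilateral spots, and Adamts1 for control spots that lie above those of both sides. Over the 8 detected genes the log2 ratio had a median of -0.19 for the contralateral and 0.00065 for the ipsilateral array against the control array (-0.011 contralaterally when only the brightest probe of a gene is taken, which leaves out the dim second probe of Mmp2), beside medians of 0.012 and 0.030 over the 22090 genes. On the contralateral array, Mmp2, Mmp14, Adamts1 and Adamts4 were lower by more than their scanner error, as were 17.1% of the 22090 genes, and none was higher by more than it, as were 15.6%. Mmp2 was within its error of 0.23 under normexp, a model-based background correction (-0.090), and with 50 added to the signal (-0.11). By its brightest probe it was within the error too (0.043). On the ipsilateral array, 3 of the 8 were lower by more than the scanner error (Mmp14, Adamts1 and Adamts4; 14.8% of all genes) and 1 was higher (Timp1; 21.8%). Both comparisons use the same control array, so their values are set side by side and are not independent of each other.

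Among the gelatinases, Mmp9, which neutrophils release from their granules and which endothelium and glia make after injury, was read from a single spot. Its scaled log2 signal was 0.88 on the contralateral, 1.46 on the ipsilateral and 1.61 on the control array, while the dimmest spot called well above background lay at 3.19, 3.63 and 3.12 on the same arrays. The gene was thus under the detection limit on all 3 arrays and no ratio is given for it. Of 9 neutrophil markers listed, 8 were on the arrays and 3 were fully detected. The granule proteins Elane and Ngp and the chemokine receptor Cxcr2 were not well above background on any array, and the other 5 did not go one way. For the ipsilateral over the control array, S100a9 had a log2 ratio of 1.04 (0.34 with normexp, a model-based background correction) and Csf3r 1.56 (scanner error 0.35). Csf3r was read from 1 spot near the detection limit, with a scaled log2 signal of 3.35 on the control array. S100a8 (-0.19), Camp (-0.13) and Itgb2 (0.053) were within the scanner error. Csf3r, S100a8 and Camp are named after their values were seen.

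Mmp2, the gelatinase made constitutively by vascular and meningeal cells and by astrocytes, had 2 probes that differed in what they gave. By the first probe, with 8 spots, the mean scaled log2 signal was 7.05 (SD between spots 0.076) on the contralateral, 7.35 (0.055) on the ipsilateral and 7.01 (0.086) on the control array. The spots of the contralateral and control arrays overlapped, and all ipsilateral spots lay above them, from 7.26 upward against at most 7.15 on either of the other arrays. Against the control array the log2 ratio was 0.043 (contralateral) and 0.34 (ipsilateral), with a scanner error of 0.21. By the second probe, a single spot, the signals were 4.46, 5.14 and 5.14 in the same order, so that the contralateral array was the low one and the ipsilateral and control arrays were alike. Averaged over both probes, the log2 ratio to the control array was -0.32 (scanner error 0.23) contralaterally and 0.16 (0.23) ipsilaterally, a mean that neither probe gives by itself. Both probes were lower on the contralateral than on the ipsilateral array, with log2 ratios of -0.29 and -0.68.

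Mmp14, the membrane-anchored protease that activates the precursor of Mmp2, was lower on both sides of the MCAO group than in the control group, by both of its probes and in all 20 of its spots. The first probe had a mean scaled log2 signal of 8.87 (SD between spots 0.074) on the contralateral, 9.08 (0.087) on the ipsilateral and 10.19 (0.053) on the control array. The second probe had 9.21 (0.083), 9.44 (0.088) and 10.55 (0.043) in the same order. For either probe the control spots lay far above all spots of both sides. The lowest control spot of the first probe was at 10.12 and the highest of either MCAO array at 9.22, and for the second probe these were 10.50 and 9.54. The log2 ratio over both probes was -1.33 for the contralateral and -1.11 for the ipsilateral array against the control array, each with a scanner error of 0.20, that is 2.51-fold and 2.16-fold lower. The probes gave nearly the same ratios, -1.32 and -1.34 contralaterally and -1.11 and -1.11 ipsilaterally, and the ratios of single spots ran from -1.43 to -1.24 and from -1.24 to -0.999. The control array was the high one, and no order is given between both MCAO arrays. Their log2 ratio, contralateral over ipsilateral, was -0.22 and barely passed the scanner error of 0.20. Their spots overlapped for both probes. Compared at the same position, all spot ratios were below 0. They ran from -0.30 to -0.15 for the first and from -0.36 to -0.14 for the second probe. Without scaling the ratio was 0.16, but the median of the 22090 genes then lay at 0.37. Relative to the median of all genes under each setting, the ratio ran from -0.23 to -0.19.

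**Figure D2:**
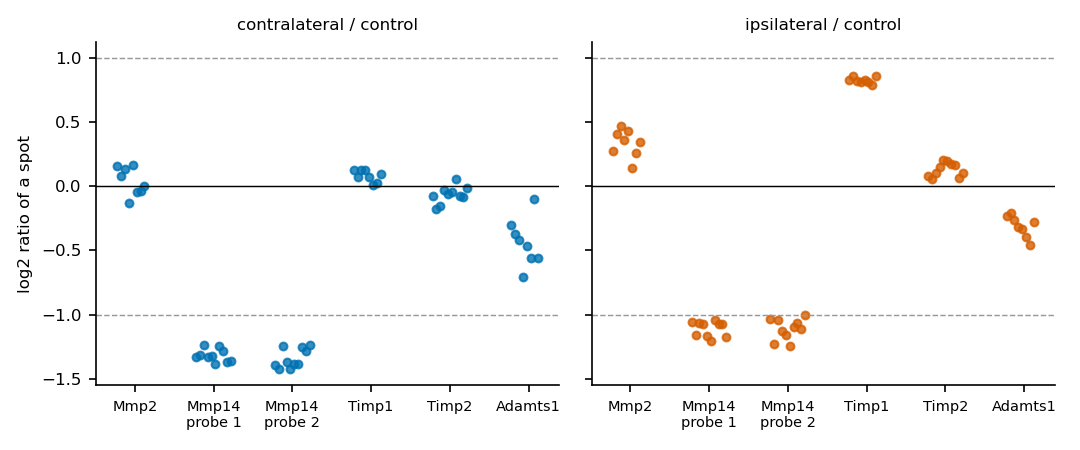
Log2 ratio to the control array of each spot of the probes with more than 1 spot, for the contralateral (left) and the ipsilateral array (right). The dashed lines mark log2 ratios of -1 and 1. Each spot is compared with the spot at the same position of the control array.

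The ratios of single spots are shown for the probes that were printed several times. Every spot of both Mmp14 probes lay below -1 on the contralateral side and at or below about -1 on the ipsilateral side, and no spot of any other probe did. The spots of Timp1 lay near 0 on the contralateral side and together near 0.8 on the ipsilateral side. In the plane of the 2 ratios to the control array, Mmp14 was the detected gene of the 9 farthest from 0, at a distance of 1.73. Among 11253 other genes with a RefSeq symbol, all fully detected, Adam4l1 (-1.31 and -1.07), Myoc (-1.33 and -1.21) and Prelid2 (-1.27 and -1.03) lay nearest to it over the 3 arrays, at distances of 0.046, 0.095 and 0.097.

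The arrays measure whole tissue, in which fewer cells of a type and less RNA per cell cannot be told apart. Markers of several cell types are set beside Mmp14 here. Of 10 markers of leptomeningeal fibroblasts, the collagen-making cells of the pia, all were fully detected, and 9 were lower on the contralateral and 8 on the ipsilateral array than on the control array, 7 and 6 of them by more than the scanner error (17.1% and 14.8% of the 22090 genes were lower by more than it). On the ipsilateral array 1, Dcn, was higher by more than its error (0.23, error 0.20), as were 21.8% of all genes. Their summed scaled signal was 8918 on the contralateral, 11717 on the ipsilateral and 14699 on the control array, and Col1a2, the brightest of them, had log2 ratios to the control array of -0.85 and -0.37. Col1a1 was lowest on the contralateral side, at -1.26 (-0.97 by its brightest probe) and -0.61, and Pdgfra highest there, at 0.043 and 0.14. Endothelial markers were lower in part. All 10 were fully detected, 6 were lower by more than the scanner error on the contralateral (17.1% of all genes) and 5 on the ipsilateral array (14.8%), where 1, Cdh5, was higher by more than it (0.43, error 0.21; 21.8% of all genes). Their summed signal was 5253, 5302 and 6771 in the order contralateral, ipsilateral, control. The brightest, the VEGF receptor Kdr, had log2 ratios of -0.66 and -0.77, the receptor Tie1 had the lowest contralateral value, -0.78 and -0.60, and Flt1 the highest contralateral value, 0.036 and 0.020. Other lists were less low or went the other way. Mural cell markers had a summed signal of 3344, 3493 and 3698 in the same order, with median log2 ratios of -0.18 and -0.13. Markers of microglia and macrophages had 4763, 5980 and 3942, with medians of 0.19 and 0.31. Without Cx3cr1 the latter sum was 2418, 2669 and 2571. The part of any of these cell types in the values of Mmp14 was not tested.

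Timp1, an inhibitor that glia and vascular cells make in response to cytokines and injury, was higher on the ipsilateral array alone. Its 8 spots had a mean scaled log2 signal of 9.60 (SD between spots 0.047) on the contralateral, 10.34 (0.044) on the ipsilateral and 9.51 (0.034) on the control array. The ipsilateral spots, from 10.29 to 10.40, lay apart from all others, while the contralateral and control spots overlapped and lay between 9.47 and 9.68. The log2 ratio to the control array was 0.83 on the ipsilateral side, a fold of 1.77, and 0.081 on the contralateral side, with a scanner error of 0.20, and that of the contralateral over the ipsilateral array was -0.75. The contralateral and control arrays thus did not differ beyond the scanner error. Or8h7 (0.059 and 0.83), Iqcg (0.054 and 0.82) and Krt15 (0.12 and 0.83) lay nearest to Timp1 in the plane of both ratios, at distances of 0.022, 0.029 and 0.042, and 15 of the 11253 genes lay within 0.1 of it.

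The stretch before the start of Timp1 in RefSeq (GRCr8) is shown since this gene alone among the TIMPs differed between arrays beyond the scanner error, and those of Adamts1 and Adamts4 since these were lower together on both MCAO arrays. The RefSeq table of promoter sequences held 6 of the 9 genes, the 4 TIMPs, Adamts1 and Adamts4, and not Mmp2, Mmp9 and Mmp14. The 250 bases before the start are given 5' to 3' along the gene, at chrX:3771123-3771372 on the minus strand for Timp1, chr11:38427385-38427634 on the minus strand for Adamts1 and chr13:86202761-86203010 on the plus strand for Adamts4. Capitals mark 4 motifs, searched on both strands and chosen after the sequences were seen: TGAGTCA and its variant TGAGTAA (AP-1), GGGCGG (GC box), and the TATA box with the letters TATAAA.
Timp1: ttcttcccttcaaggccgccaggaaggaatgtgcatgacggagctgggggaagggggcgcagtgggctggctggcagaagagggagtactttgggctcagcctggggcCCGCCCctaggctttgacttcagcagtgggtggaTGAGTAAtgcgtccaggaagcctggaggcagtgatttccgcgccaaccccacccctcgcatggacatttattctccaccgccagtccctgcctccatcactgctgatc
Adamts1: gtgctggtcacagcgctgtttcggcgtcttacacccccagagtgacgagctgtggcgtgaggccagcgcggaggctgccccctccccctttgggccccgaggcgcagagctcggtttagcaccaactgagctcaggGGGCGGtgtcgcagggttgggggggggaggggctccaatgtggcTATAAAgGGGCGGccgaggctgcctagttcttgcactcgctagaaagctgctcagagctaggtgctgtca
Adamts4: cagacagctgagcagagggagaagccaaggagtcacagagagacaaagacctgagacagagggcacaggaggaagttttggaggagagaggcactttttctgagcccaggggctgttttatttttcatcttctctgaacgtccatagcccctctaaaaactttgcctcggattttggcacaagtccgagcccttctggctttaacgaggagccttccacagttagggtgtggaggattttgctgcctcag
The window of Timp1 lies within the annotated span of the gene, of which other transcripts start further upstream, and whether it is exonic or intronic in these is not given in the table. Those of Adamts1 and Adamts4 end where the annotated gene begins. Timp1 holds TGAGTAA, 108 bases before the start, which 2.25% of 27455 promoter windows of the same length hold, and GGGCGG on the other strand, which 32.4% hold. Adamts1 holds TATAAA 70 bases before the start (13.1% of windows) with GGGCGG just after it and again upstream, and Adamts4 holds none of the 4 motifs. TGAGTCA, present in 3.98% of windows, was in none of the 6. A match describes the letters of the window and no bound factor was measured.

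**Figure D3:**
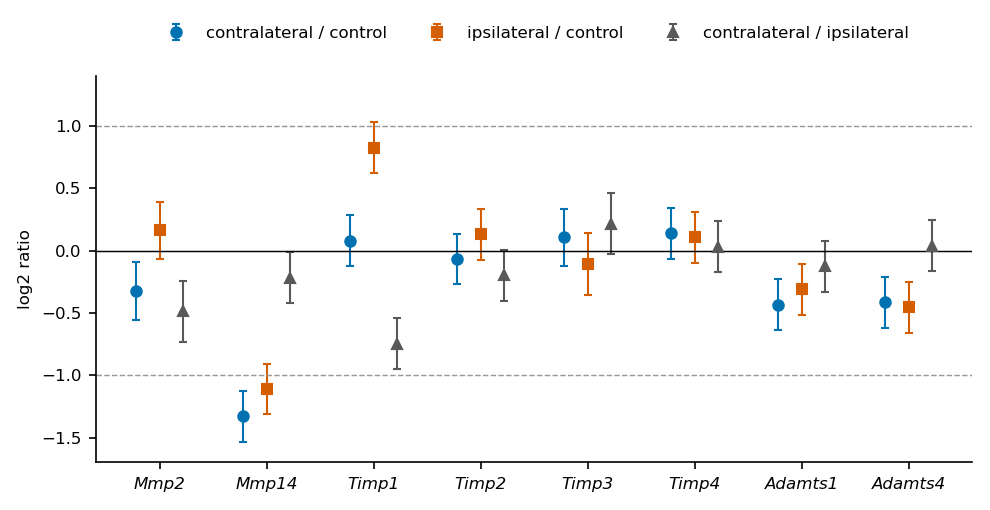
Log2 ratios of the 8 fully detected genes, for the contralateral over control, ipsilateral over control and contralateral over ipsilateral arrays. Bars are the scanner error of the ratio and do not cover rats or hybridisations. The dashed lines mark log2 ratios of -1 and 1.

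The other TIMPs were nearly level across the arrays. Timp2, the inhibitor through which Mmp14 binds the precursor of Mmp2, had a mean scaled log2 signal over 10 spots of 12.50 (SD between spots 0.042) on the contralateral, 12.69 (0.030) on the ipsilateral and 12.56 (0.042) on the control array. Contralateral and control spots overlapped, the ipsilateral spots, from 12.64, reached down to the highest control spot at 12.65, and they lay above all contralateral spots, which ended at 12.58. The log2 ratios to the control array were -0.066 and 0.13, within the scanner error of 0.20. Timp3, which binds to the matrix, was dim and read from 1 spot, with signals of 5.40, 5.19 and 5.29 in the order contralateral, ipsilateral, control, and ratios to the control array of 0.11 and -0.11. Timp4, which astrocytes express in the adult brain, was read from 1 spot as well, with signals of 12.58, 12.54 and 12.44 and ratios of 0.14 and 0.11. No pair of arrays differed beyond the scanner error for Timp2, Timp3 or Timp4. In the graph of ratios with their errors, the bars of these genes cross 0 in every comparison, whereas those of Mmp14 against the control array and of Timp1 on the ipsilateral array stay clear of it.

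Some markers of microglia, macrophages and choroid plexus were higher on the ipsilateral array, as was Timp1. The lists of endothelium, mural cells and astrocytes with Bergmann glia had median log2 ratios, ipsilateral over control, of -0.21, -0.13 and -0.038. In these 3 lists 1, 0 and 1 markers were higher there by more than the scanner error (21.8% of all genes). Lower by more than it were 5, 2 and 2 (14.8%). Markers of microglia and macrophages, 8 of 8 fully detected, had a summed signal of 4763 on the contralateral, 5980 on the ipsilateral and 3942 on the control array. Without Cx3cr1, the brightest of them, the sum of the other 7 was 2418, 2669 and 2571 in this order, nearly level. On the contralateral array 3 of the 8 were higher by more than the scanner error and 1 lower (15.6% and 17.1% of all genes), and on the ipsilateral array 4 were higher and none lower (21.8% and 14.8%). The fractalkine receptor Cx3cr1 had log2 ratios to the control array of 0.78 and 1.27 (0.74 ipsilaterally without scaling), and the scavenger receptor Cd163 of perivascular macrophages, a dim spot, 1.52 and 1.89 (0.58 and 0.76 with normexp), while Aif1 was lowest at -0.29 and -0.097. Markers of the choroid plexus, the epithelium that makes cerebrospinal fluid and lies next to the cerebellum in the fourth ventricle, differed most between the arrays. All 8 were on the arrays and 7 were fully detected, and the summed signal, mostly that of transthyretin (Ttr), was 11268 on the contralateral, 77550 on the ipsilateral and 35077 on the control array. Without Ttr it was 1358, 2221 and 2115 in this order. On the contralateral array all 7 were lower by more than the scanner error (17.1% of all genes). On the ipsilateral array 1 was lower and 4 were higher by more than it (14.8% and 21.8%). Ttr had log2 ratios of -1.73 and 1.19 to the control array (0.66 ipsilaterally without scaling) and -2.93 between the sides. Folr1 and Aqp1 had ratios of -1.80 and -1.21 between the sides (-1.08 and -0.79 with normexp), and Aqp1 was inside the threshold in 4 of 12 alternatives. Slc4a5, also dim, was lower than in the control array on both sides, at -2.12 and -1.20, but only at -0.58 and -0.52 with normexp, and Clic6 was the highest of the list on the contralateral side, at -0.55 and -0.31. Kl was under the detection limit on the contralateral array. The part of any of these cell types in the values of Timp1 was not tested.

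The ADAMTS proteases were lower on both sides of the MCAO group by less than the threshold. Adamts1, an inflammation-induced protease that also binds VEGF, had a mean scaled log2 signal over 8 spots of 7.82 (SD between spots 0.16) on the contralateral, 7.95 (0.081) on the ipsilateral and 8.25 (0.053) on the control array. All control spots, from 8.20 to 8.36, lay above all spots of both sides, of which the highest was a contralateral spot at 8.16. The log2 ratios to the control array were -0.43 and -0.31, a fold of 0.74 and 0.81, against a scanner error of 0.20 and 0.21, and the contralateral and ipsilateral arrays overlapped and did not differ beyond it. Adamts4, the aggrecanase that oligodendrocytes express in the adult brain, had signals of 9.69, 9.65 and 10.10 in a single spot, so that the control array was again the high one and both sides were alike. Its log2 ratios to the control array were -0.41 and -0.46, a fold of 0.75 and 0.73, with a scanner error of 0.20. Among markers of oligodendrocytes, Mobp was highest, with log2 ratios to the control array of 0.28 and 0.24, and Cnp lowest, at -0.47 and -0.48. Of others, named after their values were seen, Mog (-0.27 and -0.28) was lower by more than the scanner error of 0.20, and Mag (-0.16 and -0.20) and Mbp (0.036 and 0.11) were within it. Their part in the values of Adamts4 was not tested.

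The other genes of the system were taken from lists of the family and its partners. Of 18 other MMP genes, 17 were on the arrays, 10 were detected by a probe on 1 array or more and 8 were fully detected. These 8 had a median log2 ratio to the control array of 0.25 (contralateral) and 0.15 (ipsilateral), but 0.12 and 0.038 with normexp. One passed the threshold upward on both sides, beside 1.41% and 3.10% of the 22090 genes, and none downward. This was Mmp28, epilysin, a secreted MMP, with a scaled log2 signal in 1 spot of 5.05 on the contralateral, 5.95 on the ipsilateral and 4.02 on the control array. The control array was the low one and the ipsilateral array the high one, with log2 ratios to the control array of 1.03 and 1.93, each with a scanner error of 0.27. The spot is dim, and the contralateral value was under 1 in 5 of 12 alternatives (0.88 without scaling, 0.92 with spike-in probes, 0.99 on the deposited values, 0.39 with normexp) and the ipsilateral value in 2. Mmp23 was the lowest on the contralateral side, at -0.72 and -0.29. The membrane-type MMPs beside Mmp14, named here after their values were seen, went different ways. Mmp15, a close relative of Mmp14, was lower on both sides (-0.57 and -0.65), Mmp17 was higher (0.37 and 0.65), and Mmp16 (0.17 and -0.0021) and Mmp24 (-0.048 and -0.094) were within the scanner error of 0.20 to 0.21. Mmp19, also named after its values were seen, was well above background on the ipsilateral array only. With the other arrays set at their dimmest spot called well above background, it was 2.02-fold above control and 1.93-fold above contralateral. These folds are no firm lower bounds, since uncalled spots can lie above that level. The scanner error of either log2 ratio was 0.49.

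Of 17 other ADAMTS genes, 8 were matched on the arrays and 6 were fully detected. Their median log2 ratio to the control array was -0.45 (contralateral) and -0.56 (ipsilateral), but -0.18 and -0.31 with normexp, and none passed the threshold. On each side 4 of the 6 were lower by more than the scanner error, beside 17.1% (contralateral) and 14.8% (ipsilateral) of the 22090 genes. Adamts12 was lowest on the contralateral side, with signals of 4.33, 4.58 and 5.26 in the order contralateral, ipsilateral, control and ratios of -0.93 and -0.69. The others, named after their values were seen, were Adamts18 (-0.63 and -0.81), Adamts9 (-0.50 and -0.61) and Adamts7 (-0.39 and -0.52), and Adamts15 (0.054 and 0.16), the brightest of the list and within the scanner error. Adamts10, which acts on fibrillin microfibrils, was highest on the contralateral side at 0.12 and -0.026. Adamts5, an aggrecanase like Adamts4, was not well above background on the ipsilateral array.

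Of the activators, inducers and clearance of MMPs, all 11 genes were on the arrays and 8 were fully detected. None of these 8 passed the threshold, with median log2 ratios to the control array of 0.076 and -0.056. Furin, the convertase that cuts the Mmp14 precursor, was highest at 0.16 and 0.16, and Adam17, the sheddase that Timp3 inhibits, lowest at -0.30 and -0.65. Klkb1, plasma prekallikrein, named after its values were seen, was well above background on the control array only, in a single dim spot. With the other arrays set at their dimmest called spot, it was 2.16-fold above contralateral and 1.59-fold above ipsilateral. These folds are no firm lower bounds, as the scanner errors of the log2 ratios were 1.46 and 1.19. Of 10 other inhibitors, 9 were on the arrays and 7 were fully detected, none beyond the threshold, with medians of -0.15 and -0.072. Serping1, the C1 inhibitor, was highest, with signals of 11.63, 11.82 and 11.05 and ratios of 0.58 and 0.77, and the testican Spock3 lowest on the contralateral side, at -0.26 and -0.20.

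The substrates were measured too. Of 9 genes of lecticans and perineuronal matrix, 8 were fully detected, and aggrecan (Acan) was not well above background on any array. None passed the threshold, and the medians were -0.20 and -0.15. The link protein Hapln2 was highest at 0.16 and 0.15 and neurocan (Ncan) lowest on the contralateral side, at -0.60 and -0.019. Of 15 basement membrane genes, 10 were on the arrays and 8 fully detected, with medians of -0.087 and -0.14 and none beyond the threshold. Sparc, which binds collagen, was highest, with signals of 15.49, 15.40 and 14.92 and ratios of 0.57 and 0.49, and Lama4, a laminin chain of vessel walls, lowest on the contralateral side at -0.86 and -0.60. On either side 4 of the 8 were lower and 2 higher than on the control array by more than the scanner error, beside 17.1% and 15.6% (contralateral) and 14.8% and 21.8% (ipsilateral) of all genes.

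**Figure D4:**
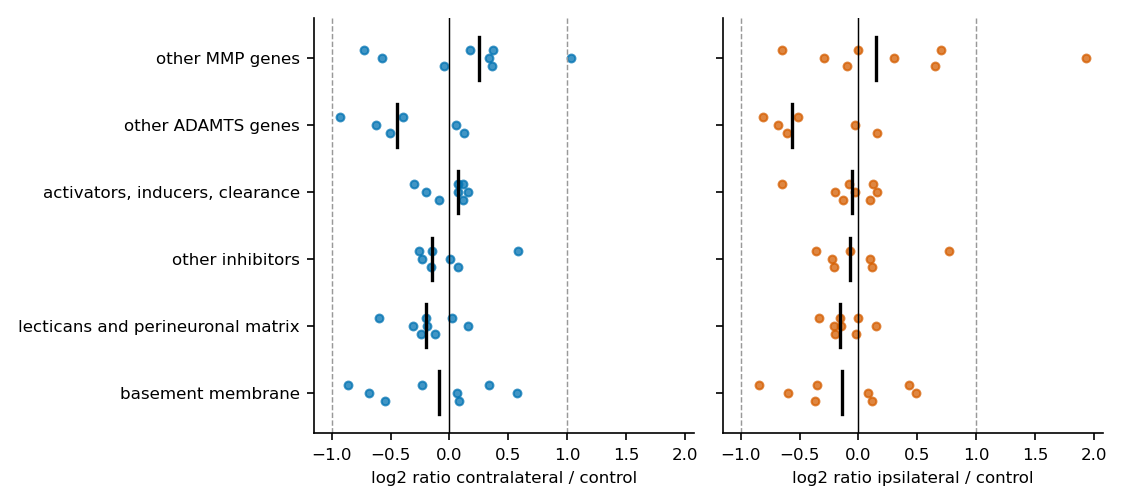
Log2 ratios to the control array of the fully detected genes of 6 lists, for the contralateral (left) and the ipsilateral array (right). Each dot is a gene and the black bar the median of its list. The dashed lines mark log2 ratios of -1 and 1.

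In the graph of these lists the ADAMTS genes have the median farthest to the left and a single MMP gene, Mmp28, lies past 1. The 2 panels share the control array.

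The tissue label was read against markers of cerebellar neurons. The 6 Purkinje cell markers and the 7 granule cell markers were all fully detected, and none passed the threshold. The Purkinje cell markers had a summed signal of 146735, 148448 and 136278 in the order contralateral, ipsilateral, control, with Car8 the brightest (0.14 and 0.15), Pvalb highest (0.21 and 0.26) and Pcp2 lowest (-0.036 and -0.039). The granule cell markers had 88762, 87939 and 89146, with Cbln1 the brightest (-0.098 and -0.081), Etv1 highest (0.27 and 0.15) and Zic1 lowest (-0.19 and -0.076) on the contralateral side. Neuronal markers of the cerebellar cortex were thus present and nearly level.

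Among the remaining cell types, mural cell markers were 9 of 9 fully detected with a summed signal of 3344, 3493 and 3698 in the same order. By more than the scanner error, 3 were lower on the contralateral and 2 on the ipsilateral array (17.1% and 14.8% of all genes). None was higher by more than it (15.6% and 21.8% of all genes). Cspg4 was the brightest (-0.046 and -0.0055), Notch3 highest (-0.032 and 0.18) and Rgs5 lowest (-0.42 and -0.35). Markers of astrocytes and Bergmann glia were 8 of 8 fully detected with 76553, 77135 and 84722, and without Aqp4 with 49937, 48555 and 45696. Aqp4 was the brightest (-0.55 and -0.45), Gdf10 highest (0.39 and 0.27) and Gfap lowest (-0.74 and -0.66). The neutrophil list had a summed signal of 186, 230.1 and 180 in that order, with Itgb2 the brightest on the control array (-0.057 and 0.053) and S100a9 highest (0.58 and 1.04, the latter beyond 1 in 6 of 12 alternatives). This sum takes in all 8 genes on the arrays, of which only 3 were fully detected. Negative control spots were also brighter on the ipsilateral array after scaling, with median log2 signals of 1.12, 1.57 and 1.06 in that order. Csf3r, well above background on the ipsilateral and control arrays, had a ratio of 1.56 between these, in 1 dim spot. With the contralateral array set at its dimmest called spot, the ipsilateral array was 3.31-fold higher. This fold is no firm lower bound, and the scanner error of that log2 ratio was 0.49.

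**Figure D5:**
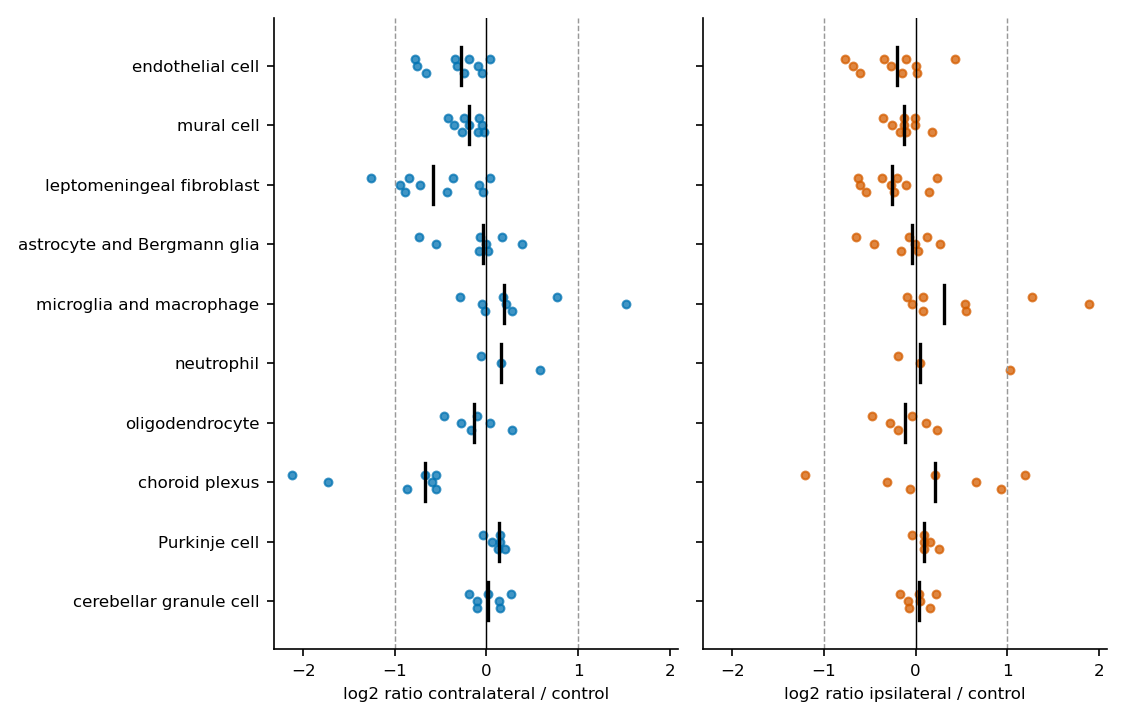
Log2 ratios to the control array of the fully detected cell type markers, for the contralateral (left) and the ipsilateral array (right). Each dot is a gene and the black bar the median of its list. The dashed lines mark log2 ratios of -1 and 1.

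The marker graph shows the lists of Purkinje and granule cells gathered at 0, and those of leptomeningeal fibroblasts and endothelium spread mostly to the left on both sides. The choroid plexus list lies to the left on the contralateral side and on both sides of 0 on the ipsilateral side. How far any of these cell types enters the values of the MMP, TIMP and ADAMTS genes was not tested.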

How the data were processed

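Cy3-labelled RNA of 3 pools was hybridised to 1-colour Agilent arrays, and the authors deposited a fluorescence intensity per spot, read by Agilent Feature Extraction (12.1.0.3). Its processed signal, from which background is subtracted, was used. All arrays were on 1 slide and in 1 scan. Of 58717 spots that are not controls, 72.3%, 73.3% and 73.7% were well above background (contralateral, ipsilateral, control), and none was saturated. The median SD of the log2 signal between spots of a probe was 0.046 to 0.047.

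Log2 signals were shifted to a common 75th percentile (2103, 1614 and 2336 before scaling). The 759 outlier spots, 6 of them among the 65 of the 9 genes, were left out. Spots were averaged per probe, then probes per gene. The error of a ratio is that of a single spot, not reduced by averaging. Accessions were matched to symbols of the RefSeq table for GRCr8 (17622 of 39957). A log2 ratio beyond 1 or -1 was the threshold.

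Named genes were the 9 genes, from each other list those beyond the threshold and the highest and lowest on the contralateral side, for marker lists also the brightest control signal, and the 3 genes nearest to Mmp14 and Timp1. Not every gene that this rule gives is printed. Members and lists were chosen with earlier results of these data known. Computation was checked on simulated arrays. Python 3.11.15, numpy 2.4.6, pandas 2.3.3, matplotlib 3.10.9, R 4.3.3 and limma 3.58.1 were used. The 12 alternatives concerned scaling, background correction, dim probes, probe choice and outlier spots.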

Additional observations from a re-analysis of the deposited data

How the results depend on the processing

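Among the 9 genes, the counts beyond a log2 ratio of 1 or -1 were equal under all 12 alternatives, which does not hold for the other lists, and Mmp14 was below -1 against the control array in each, from -1.48 to -1.21 on the contralateral and from -1.64 to -1.02 on the ipsilateral side. Timp1 on the ipsilateral side ran from 0.29 to 0.84. Adamts1 and Adamts4 were lower than on the control array under all 12 on both sides. Without scaling, the median of the 22090 genes lay at -0.14 (contralateral over control), -0.50 (ipsilateral over control) and 0.37 (contralateral over ipsilateral), and with spike-in probes the first 2 lay at -0.099 and -0.18. Relative to that median, Timp1 on the ipsilateral side ran from 0.76 to 0.83 and Mmp14 from -1.14 to -1.02, and the median of the 6 other ADAMTS genes ran over the scalings and normexp from -0.46 to -0.19 contralaterally and from -0.59 to -0.31 ipsilaterally. The median over the 8 detected genes for ipsilateral over control was -0.53 without scaling and -0.20 with spike-in probes. That for contralateral over ipsilateral was -0.16 as processed here and 0.22 without scaling. These shifts are those of the scaling itself. Both filters on dim probes and the median of probes leave the 8 detected genes unchanged, so that 9 alternatives bear on them. These changed 183 ratios of single genes, 25 of them by more than the scanner error (16 without scaling and 6 with spike-in probes). Another sign was found in 15, none of them a ratio beyond 1 (9 without scaling and 5 with spike-in probes). Both of these settings shift all genes of an array alike. Mmp2 on the contralateral side was 0.043 by its brightest probe against -0.32, which moved the median of the detected genes from -0.19 to -0.011; that median was -0.095 with normexp. With normexp and with 50 added to the signal, the dim markers Cd163 and Slc4a5 were inside the threshold on both sides. Mmp9 gave no value under both filters on dim probes.

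With 1 array per pool, leaving out an array was not possible. Timp3, Timp4, Adamts4 and Mmp9 rest on a single spot each. Signal over background limits Mmp9 and leaves Timp3 and the second Mmp2 probe dim. Against the control array, differences between rats, between dissections and between hybridisations cannot be told apart from those of MCAO. The ipsilateral array held right and the control array left cerebellar cortex, so that left and right cannot be told apart from MCAO there either. Both MCAO pools came from the same rats, and their comparison is open to differences between dissections and hybridisations.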
